A study of Mus musculus with 6 samples.

Results

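Regulators of fat cell formation and proteins secreted by fat cells were followed in stromal cells of the mouse femur marrow. Controls were compared with cells labelled deficient in the chemokine CXCL12. The genes were Pparg, Cebpa, Cebpb and Cebpd (transcription factors), Adipoq, Lep, Retn and Cfd (adipokines), and Lpl and Fabp4 (handling of fatty acids). They were taken by gene symbol from the table of read counts, which held 17128 genes once the 4 exon entries of Cxcl12 were summed. Of the 10 genes, 9 had an entry and 8 had enough reads to be tested among 13926 genes. Lep, which encodes leptin, matched no entry and was not analysed here, and Retn had too few reads for the test.

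RNA sequencing was done on 6 sorted libraries of about 20000 cells each, from mice at postnatal day 21. The 3 control libraries held GFP+ cells of Cxcl12(GFP/fl); R26R(tdTomato/+) mice. The 3 CXCL12-deficient libraries held GFP+ tdTomato+ cells of Cxcl12(GFP/fl); Col2a1-cre; R26R(tdTomato/+) mice. The second group is called deficient from here on. In both genotypes one Cxcl12 allele carries GFP in place of a working gene and the other is floxed, so the controls also have a single working copy. The Col2a1-cre transgene is active in the cartilage and skeletal lineage, and only its descendants with a recombined reporter entered the second gate. Genotype and gate therefore changed together and cannot be told apart. The labels do not say whether a library came from 1 animal or from several, and each p-value reflects only how much these libraries vary, which may be technical.

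PPARG is the nuclear receptor without which fat cells do not form. In the textbook sequence C/EBPβ and C/EBPδ act early, and C/EBPα and PPARG then maintain each other and switch on genes such as Adipoq, Fabp4 and Lpl. In bone marrow the CXCL12-abundant reticular (CAR) cells carry part of this programme without storing fat, and marrow fat cells arise from the same stromal lineage.

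The libraries held stroma and other cells. Total counts ran from 20133299 to 28009257. Cxcl12 was lower in every deficient library (1163 to 1423 CPM, read counts scaled to equal library totals) than in any control (3673 to 3876 CPM). All 15 stromal reference genes were detected, with a summed level of 11250 to 26592 CPM in controls and 14315 to 21786 CPM in deficient libraries, and 1 of the 15 rose. Of 14 neutrophil genes 13 fell, from 15162 to 20954 CPM in sum to between 2894 and 7059 CPM. Of 13 monocyte and macrophage genes 6 fell, and the sum, most of it Lyz2, went from between 2170 and 3370 CPM to between 504 and 927 CPM. The macrophage genes C1qa, C1qb, C1qc and Mrc1 went the other way, with log2 fold changes of 0.46, 0.78, 0.78 and 0.29, none of them called. Cd68, Adgre1 and Cx3cr1 were negative (-0.85, -0.53 and -2.02) and also not called. No marker in these lists was at 0 in every library. In such bulk samples, fewer cells of a type and less RNA per cell cannot be told apart.

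The secreted products Adipoq and Cfd rose in deficient libraries, and no difference of the transcription factors, Lpl or Fabp4 passed the test. Adipoq was 1.97-fold and Cfd 6.06-fold higher. All 8 tested genes had a positive log2 fold change on the standard scalings, with a median of 0.66. The median was 0.03 over all tested genes and 0.28 over the 15 stromal reference genes. When libraries were scaled to those reference genes, Cebpb turned negative, and Pparg and Cebpd were at 0.01 and 0.03. A gene was called at an adjusted p below 0.05 (edgeR). By that rule 2 of the 8 genes were called higher and 0 lower, with 4 of the 8 at an unadjusted p below 0.05. The share of all tested genes below that unadjusted p was not counted. Counts at that unadjusted p, here and below, therefore have no share of all genes to be read against. Of all tested genes 0.639% were called higher, 3.94% lower and 4.57% in either direction. Higher calls were 14.0% of all calls, and 1.08% of them with the stromal scaling. Every deficient library lay above every control for 3 of the 8 genes (Adipoq, Cfd and Cebpa), which was so for 11.7% of all tested genes. The plot of levels by library shows each of these values.

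**Figure D1:**
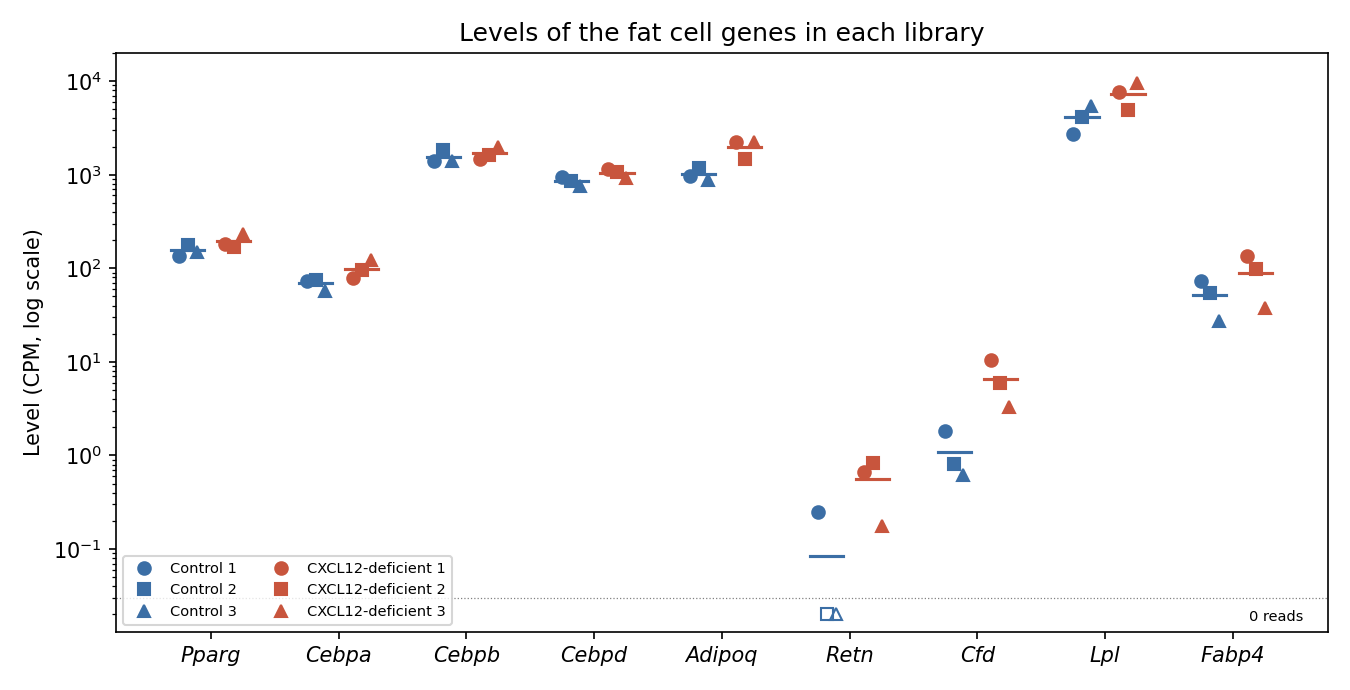
Level of each gene (CPM, log scale) in the 3 control (blue) and 3 CXCL12-deficient (red) libraries, with marker shapes for replicates 1 to 3 and a line at each group's mean. Open markers at the bottom are libraries with 0 reads. Only Adipoq, Cfd and Cebpa show no overlap between the groups, and levels run from under 1 CPM for Retn to 9473 CPM for Lpl.

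Per length of transcript, the genes of the set differed in level by over 3 orders of magnitude, and 3 of them were among the most abundant transcripts of these cells. Dividing CPM by the length of the principal GENCODE M21 transcript allowed genes to be compared. In controls the order was Cebpb (1027 ± 169 CPM per kb, SD, n = 3), Lpl (1006 ± 334), Adipoq (780 ± 117), Cebpd (229 ± 26.02), Pparg (87.7 ± 12.4), Fabp4 (57.6 ± 25.5), Cebpa (26.2 ± 3.75), Cfd (1.17 ± 0.702) and Retn (0.0731 ± 0.127). The library values of Cebpb, Lpl and Adipoq overlapped as neighbours in this order, as did those of Pparg and Fabp4, and all other neighbours were separate. In deficient libraries the order of these levels per kb began with Lpl (1784 ± 565), Adipoq (1539 ± 340.0) and Cebpb (1129 ± 176), whose values again overlapped. The lower places were unchanged, except that Fabp4 (100.4 ± 54.4) then overlapped Cebpa (37.7 ± 8.75). Among 14285 genes with such a length, Lpl ranked between 9 and 64 in the 6 libraries, Adipoq between 17 and 54, and Cebpb between 24 and 46. Cfd ranked between 5074 and 10727. Adipoq thus moved from ranks 50 to 54 in controls to ranks 17 to 27 in deficient libraries.

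Pparg, the master regulator, did not pass the test. On the CPM scale it had 136, 179 and 149.9 in control replicates 1, 2 and 3, and 183, 170.1 and 232 in deficient replicates 1, 2 and 3. The groups overlapped, since control replicate 2 lay above deficient replicate 2. The log2 fold change was 0.33 ± 0.17 (SE; adjusted p = 0.35, edgeR), and the 95% interval of the fold ran from 0.958 to 1.66.

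Cebpa, which maintains the fat cell state together with Pparg and also drives granulocyte formation, had 73.3, 75.8 and 57.6 CPM in controls. In deficient libraries it had 78.5, 94.9 and 123.9 CPM. All 3 of these lay above the controls, the lowest by a small margin. The log2 fold change was 0.52 ± 0.20 (adjusted p = 0.20, edgeR) and the interval of the fold ran from 1.05 to 1.97, so the difference did not pass the correction over all genes.

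The early factors Cebpb and Cebpd were the most abundant of the 4 and overlapped between groups. Cebpb had 1402, 1837 and 1395 CPM in controls and 1470.0, 1633 and 1989 CPM in deficient libraries, with control replicate 2 above the lowest pair of these. Its log2 fold change was 0.14 ± 0.19 (adjusted p = 0.77, edgeR), with a fold between 0.81 and 1.49. Cebpd had 957, 857 and 762 CPM in controls and 1139, 1079 and 923 CPM in deficient libraries, where only control replicate 1 lay above any of them. Its log2 fold change was 0.29 ± 0.17 (adjusted p = 0.41, edgeR), with a fold between 0.937 and 1.59. Cebpa, Cebpb and Cebpd each consist of a single exon and share exonic bases with a gene on the other strand in GENCODE M21. Cebpa shares 51 bases with Gm45091, Cebpb shares 312 with Tmem189 and Cebpd shares 562 with Spidr. The strand setting of the counts is not given in the sources used here. Tmem189 had 85.7 ± 5.41 CPM in controls and 84.4 ± 13.1 CPM in deficient libraries.

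Myeloid cells also use Cebpa, Cebpb and Cebpd. In the same deficient libraries 13 of 14 neutrophil markers and 6 of 13 monocyte and macrophage genes were called lower, as given above. Of the 13, C1qa, C1qb, C1qc and Mrc1 had positive log2 fold changes. The part of these cells in the levels of the 3 factors was not tested. None of the 4 transcription factors was called by edgeR with any library left out (6 refits), by DESeq2 or by limma, and 1 of the 4, Cebpa, had an unadjusted p below 0.05.

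Adipoq encodes adiponectin, a hormone that raises fatty acid oxidation and insulin sensitivity in other tissues. In GRCm38 it spans bases 23146536 to 23158028 of chromosome 16 (plus strand). Cfd encodes adipsin, or complement factor D, the serine protease that cuts factor B in the alternative complement pathway. Its position is chromosome 10, bases 79890853 to 79892655 (plus strand). Their promoters are shown because these were the genes of the set that rose. Each run is the 250 bases before the RefSeq start (GRCm38.p6, plus strand, 5′ to 3′), at chr16:23146286-23146535 and chr10:79890603-79890852. Capitals mark matches to the CCAAT box, the TATA box (TATAAA), the C/EBP core (TTNNGNAA) or the PPARG site DR1, a direct repeat of AGGTCA with 1 base between, each searched on both strands.
Adipoq: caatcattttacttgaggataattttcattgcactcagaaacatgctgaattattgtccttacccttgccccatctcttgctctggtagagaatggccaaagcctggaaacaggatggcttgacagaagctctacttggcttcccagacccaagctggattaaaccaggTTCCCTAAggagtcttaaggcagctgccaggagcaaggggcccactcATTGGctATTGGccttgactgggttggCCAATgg
Cfd: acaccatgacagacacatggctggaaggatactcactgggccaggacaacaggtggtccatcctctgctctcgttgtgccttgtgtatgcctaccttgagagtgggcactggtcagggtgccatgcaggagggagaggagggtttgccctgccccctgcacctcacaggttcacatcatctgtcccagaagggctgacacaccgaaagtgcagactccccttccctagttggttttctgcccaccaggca
The Adipoq window held 3 CCAAT matches within 34 bases of the start, 2 of them on the minus strand. It also held 1 match to the C/EBP core on the minus strand, printed as TTCCCTAA, between 81 and 74 bases before the start. The Cfd window held no match to any of the 4 motifs. Of 32851 such windows in the RefSeq table, 33.8% hold the CCAAT box, 12.4% the TATA box, 36.8% the C/EBP core and 0.0335% the DR1 site, and no motif overlapped another in the windows shown. Windows were matched for 7 of the 10 genes. The Cebpa window held 1 TATA box and the Lep window 1 C/EBP core. Among the Pparg windows, 1 held 2 CCAAT boxes and 2 C/EBP cores, 1 held 1 CCAAT box and 1 TATA box, and 1 held none. The Cebpb and Retn windows held no match.

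Adipoq had 958, 1178 and 887 CPM in controls. In deficient libraries it had 2252, 1482 and 2233 CPM. All 3 deficient libraries were above the highest control, with replicate 2 the nearest to it. The mean was 1007 ± 152 CPM in the first group and 1989 ± 439 CPM in the second (SD, n = 3 each). On the log2 scale Adipoq rose by 0.98 ± 0.22 (adjusted p = 0.038, edgeR). The call was kept in only 1 of the 6 refits, the one without deficient replicate 2 (adjusted p = 0.029). The adjusted p was 0.093, 0.092 and 0.18 without control replicates 1, 2 and 3, and 0.085 and 0.084 without deficient replicates 1 and 3. When libraries were scaled to the 15 stromal reference genes, the median of all genes moved by -0.29 on the log2 scale and the log2 fold change of Adipoq was 0.70 (adjusted p = 0.28), which is 0.96 above that median.

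Cfd was a scarce transcript and rose from a low level. It had 51, 20 and 13 reads in controls, or 1.82, 0.813 and 0.614 CPM. In deficient libraries it had 254, 138 and 74 reads, or 10.6, 6.02 and 3.29 CPM. The groups did not overlap, yet within each group the libraries differed about 3-fold (2.96-fold in controls and 3.22-fold in deficient libraries). The log2 fold change was 2.60 ± 0.61 (adjusted p = 0.047, edgeR), with an interval of the fold from 2.33 to 15.7. It was called without control replicate 1 (adjusted p = 0.041) and without deficient replicate 3 (0.034). The adjusted p was 0.17 and 0.20 without control replicates 2 and 3, and 0.13 and 0.081 without deficient replicates 1 and 2. Scaled to the stromal reference genes, Cfd kept its call (log2 fold change 2.50, adjusted p = 0.030), 2.76 above the median of all genes.

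Retn encodes resistin, a hormone that in mice comes mainly from fat cells. Control replicate 1 had 7 reads and the other control libraries 0, where 3 reads would be 0.122 and 0.142 CPM. The deficient libraries had 16, 19 and 4 reads, or 0.666, 0.829 and 0.178 CPM. Control replicate 1, at 0.25 CPM, lay above deficient replicate 3, so the groups overlapped. With no filter on low counts the log2 fold change was 2.62 ± 1.59 (adjusted p = 0.45, edgeR), and a difference was not detectable at this depth.

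Lpl encodes lipoprotein lipase, which releases fatty acids from circulating triglyceride, and its counts were the highest of the set. It had 2743, 4189.5 and 5492 CPM in controls and 7687, 4862 and 9473 CPM in deficient libraries. The highest control lay above deficient replicate 2, and each group spanned about 2-fold (2.0-fold and 1.95-fold). The log2 fold change was 0.83 ± 0.32 (adjusted p = 0.20, edgeR), with a fold between 1.08 and 2.90.

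Fabp4, the fatty acid carrier of fat cells that capillary endothelium also makes, varied most among the genes above 10 CPM. It had 72.9, 54.5 and 27.4 CPM in controls and 133.9, 98.5 and 37.5 CPM in deficient libraries. Deficient replicate 3 lay among the controls, and the span within a group was 2.66-fold and 3.57-fold. The log2 fold change was 0.80 ± 0.46 (adjusted p = 0.39, edgeR), with a fold between 0.851 and 3.56. All 16 endothelial markers had a negative log2 fold change and 9 fell, and their sum was 197 to 287 CPM in controls against 54.4 to 76.6 CPM in deficient libraries. None of the 16 was at 0 in every library, while Sox17, Tie1 and Flt4 were at 0 in at least 1 deficient library. The part of endothelial RNA in the Fabp4 level was not tested.

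**Figure D2:**
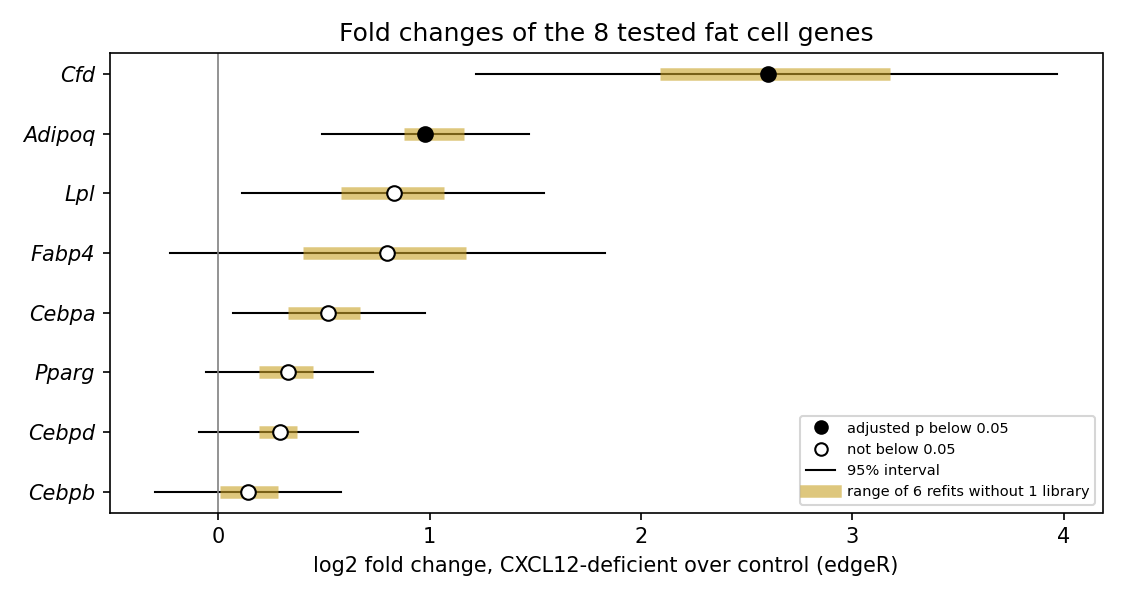
Log2 fold change of the 8 tested genes (deficient over control), with 95% intervals as thin lines and the range over 6 refits without 1 library as thick bars. Filled points, Cfd (2.60) and Adipoq (0.98), had an adjusted p below 0.05, and the intervals of Fabp4, Pparg, Cebpd and Cebpb include 0.

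The libraries of a group differed in which of the genes they held at the highest and lowest level. Deficient replicate 3 was the highest of its group for Pparg, Cebpa, Cebpb and Lpl and the lowest for Cfd, Fabp4, Retn and Cebpd. In the controls, replicate 3 was the highest for Lpl and the lowest for Cebpa, Cebpb, Cebpd, Adipoq, Cfd and Fabp4. Control replicate 2 was the highest for Pparg, Cebpa, Cebpb and Adipoq. Within each group the libraries ranked alike for Cfd and Fabp4. The summed level of 10 erythroid markers in deficient replicates 1, 2 and 3 was 4822, 4373 and 1543 CPM, so that replicate 3 was the lowest there too. In controls 1, 2 and 3 that sum was 2075, 3065 and 3390 CPM and replicate 1 was the lowest. The endothelial sum was 287, 209 and 197 CPM in controls 1, 2 and 3, which ranked as for Cfd and Fabp4, and 76.6, 54.4 and 56.2 CPM in the deficient replicates. The part of other cells in this variation was not tested.

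Ratios within a library hardly depend on the scaling between libraries, and were taken after adding 0.5 CPM. The log2 ratio of Adipoq to Pparg was 2.81, 2.71 and 2.56 in controls and 3.61, 3.12 and 3.26 in deficient libraries. These did not overlap and differed by 0.64 (exact permutation p = 0.1, two-sided, the smallest that 3 against 3 libraries can give; 0.15 after Benjamini-Hochberg adjustment over 3 ratios). The log2 ratio of Cebpb to Cebpa was 4.25, 4.59 and 4.58 in controls and 4.22, 4.1 and 4.0 in deficient libraries, a difference of -0.37 with no overlap (exact permutation p = 0.1, adjusted 0.15). The log2 ratio of Cfd to Pparg went from a mean of -6.68 ± 0.70 to -4.90 ± 0.96 (SD, n = 3 each), a difference of 1.78. Control replicate 1 and deficient replicate 3 overlapped in this last ratio (exact permutation p = 0.2, adjusted 0.2). That overlap rested on the amount added, since Cfd was scarce. With 0.1 CPM added the difference was 2.16 (exact permutation p = 0.1), and with 2 CPM added it was 1.09 (p = 0.2).

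**Figure D3:**
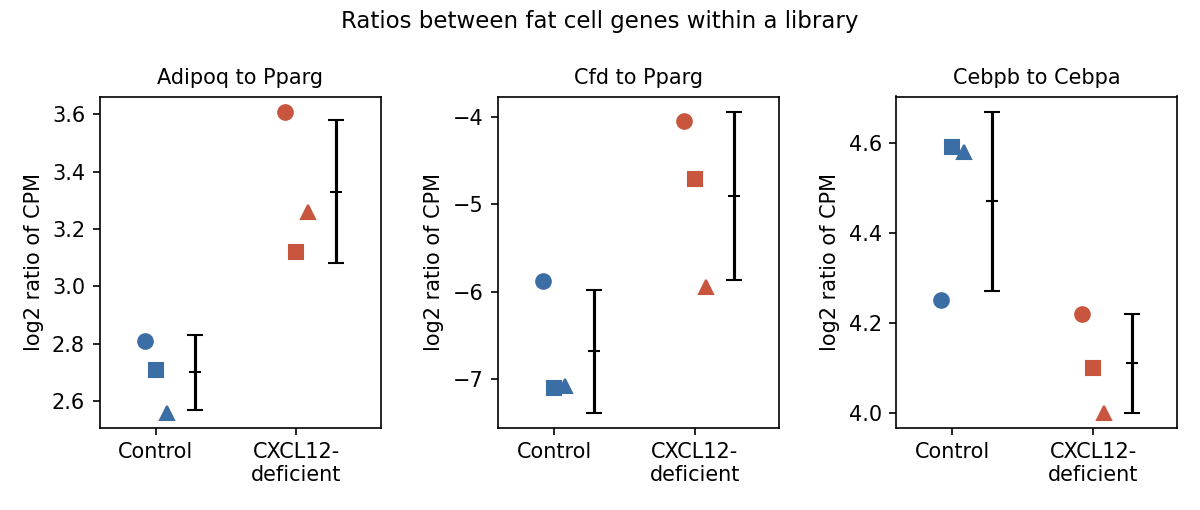
Log2 ratios of CPM within each library for Adipoq to Pparg, Cfd to Pparg and Cebpb to Cebpa, with the mean and SD of each group in black and axes that do not start at 0. Adipoq to Pparg was higher and Cebpb to Cebpa lower in all 3 deficient libraries (red) than in any control (blue). Cfd to Pparg overlapped with the 0.5 CPM added here.

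Of 26 genes expressed late in fat cells or targeted by PPARG, 22 were tested, 4 rose and 1, Dgat2, fell. Among all tested genes 0.639% were called higher and 3.94% lower, so 1 fall among 22 is near the share of all genes. The median log2 fold change of the late genes was 0.25, against 0.03 for all genes, and -0.01 with the stromal scaling. Under that scaling Thrsp was the one late gene called higher and Dgat2 was still called lower. Thrsp, a regulator of lipid synthesis, had 0.714, 0.732 and 0.425 CPM in controls and 16.99, 7.89 and 2.04 CPM in deficient libraries. Its log2 fold change was 3.83 ± 0.75 (adjusted p = 0.024, edgeR), and deficient replicate 3 was again the lowest of its group. Gpd1, which makes the glycerol phosphate of triglyceride, had 5.25, 3.09 and 9.54 against 54.8, 81.1 and 16.0 CPM (adjusted p = 0.023). The glucose transporter gene Slc2a4 had 7.10, 10.4 and 14.6 against 29.7, 50.1 and 31.4 CPM (adjusted p = 0.017). Aqp7, the glycerol channel, was named after its value was seen and rose 1.79-fold from 49.0 to 87.7 CPM (adjusted p = 0.026). Dgat2, which completes triglyceride, fell by 1.25 on the log2 scale, with a mean of 96.8 ± 7.92 CPM in the controls and 40.7 ± 18.1 CPM in the deficient group (adjusted p = 0.044).

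Other late genes, named after their values were seen, ranged from abundant to barely detected. Plin2, a droplet coat protein of many cell types, had between 166 and 182 CPM in controls and between 137 and 182 CPM in deficient libraries. Dgat1, which like Dgat2 completes triglyceride, had between 94.3 and 156 CPM over the 6 libraries. Plin1, the main coat protein of the fat cell droplet, had between 2.36 and 14.5 CPM in controls and between 3.33 and 21.9 CPM in deficient libraries. Cidec, which fuses lipid droplets, reached 0.661 CPM in controls and 5.41 CPM in deficient libraries and was not called by edgeR (adjusted p = 0.14). DESeq2 called Cidec and Adrb3 higher beside the 4 genes that edgeR called, and limma-voom called 2 late genes higher, Aqp7 and Slc2a4. Adig, a small fat cell protein, stayed at or below 0.5 CPM in every library. With control replicate 2 or 3 left out, 0 late genes were called, and with replicate 1 of either group left out, 1 was. Leaving out deficient replicate 2 gave 5 calls, and leaving out deficient replicate 3 gave 3. Thrsp kept its call without deficient replicate 2 or 3, Gpd1 without deficient replicate 3, Aqp7 and Dgat2 without deficient replicate 2, and Slc2a4 in 4 refits but not without control replicate 2 (adjusted p = 0.078) or 3 (0.052).

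Among 22 other activators of fat cell differentiation 1 rose and 1 fell by edgeR, beside 0.639% and 3.94% of all tested genes. DESeq2 also called Nfia and Rxra higher, and edgeR called Klf15 higher without deficient replicate 1 (adjusted p = 0.03). The median log2 fold change of the list was 0.32, and 0.03 with the stromal scaling, under which Klf5 alone was called. Nr1h3, the oxysterol receptor LXRα, had 24.7, 26.7 and 20.3 CPM in controls and 41.2, 36.8 and 53.1 CPM in deficient libraries. Its log2 fold change was 0.87 ± 0.21 (adjusted p = 0.048, edgeR), and no refit without a library called it (adjusted p from 0.054 to 0.22). Klf5, a factor downstream of the early C/EBPs that also acts in other tissues, had 46.0, 37.9 and 53.7 against 21.2, 18.5 and 11.5 CPM, a fall of 1.43 on the log2 scale (adjusted p = 0.019). It lost its call without control replicate 2 (adjusted p = 0.053) or 3 (0.087). None of 14 tested inhibitors of fat cell differentiation was called by edgeR, with 2 at an unadjusted p below 0.05 and a median of -0.02, while DESeq2 called Klf2 lower. Without deficient replicate 2, edgeR called Gata2 lower (adjusted p = 0.031). The most abundant of these were Tsc22d3, a glucocorticoid-induced factor (log2 fold change -0.22 ± 0.21, adjusted p = 0.65), and Klf2 (-0.54 ± 0.17, adjusted p = 0.13).

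**Figure D4:**
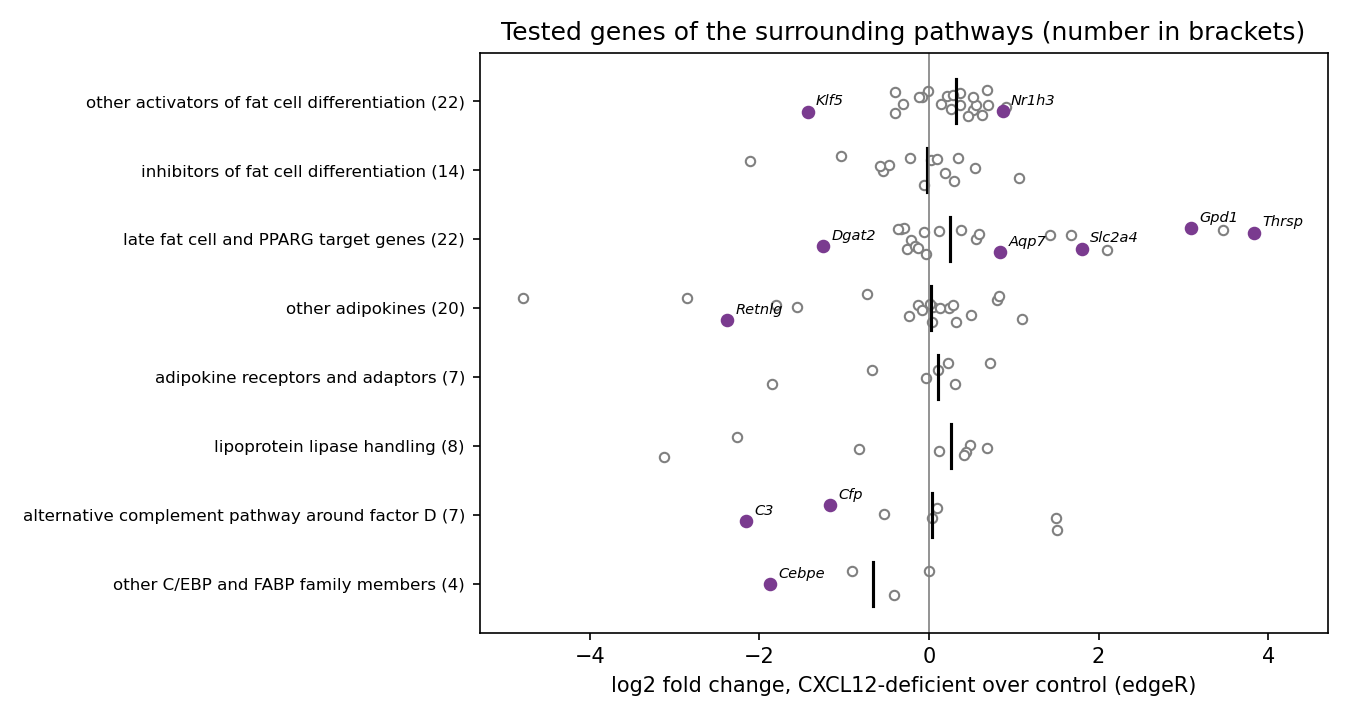
Log2 fold change (deficient over control) of every tested gene of 8 lists around the fat cell genes, with filled named points for an adjusted p below 0.05 and a black line at each list's median. The medians lie between -0.66 and 0.32, and among the lists only the other activators and the late fat cell genes have filled points on both sides of 0. Scaled to the stromal reference genes, only the late genes do.

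Of 20 tested genes for other adipokines, 0 rose and 1 fell by edgeR, with 5 at an unadjusted p below 0.05, and DESeq2 called 1 higher and 3 lower. The one that fell was Retnlg, a relative of Retn that neutrophils express, with 289, 356 and 328 CPM in controls and 101.8, 49.8 and 35.0 CPM in deficient libraries. It dropped by 2.38 on the log2 scale (SE 0.35; adjusted p = 0.011, edgeR) and missed the threshold only without control replicate 3 (0.053). The summed neutrophil markers given above were lower in the same libraries, and their part in this fall was not tested. The list's median log2 fold change was 0.02, and -0.27 with the stromal scaling.

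None of 7 adipokine receptors and adaptors was called by edgeR, 2 had an unadjusted p below 0.05, and DESeq2 called Lepr higher. Their median log2 fold change was 0.11, and -0.18 with the stromal scaling, whose 15 reference genes include Lepr. Lepr, the leptin receptor that marks CAR cells, had 630.0, 688 and 637 CPM in controls and 1157, 810 and 1260.1 CPM in deficient libraries. Every deficient library was above every control, with a log2 fold change of 0.72 ± 0.19 (adjusted p = 0.075, edgeR). It passed the threshold in 1 of the 6 refits, and without deficient replicate 3 edgeR called 1 other gene of the list lower, the adiponectin receptor gene Cdh13. Adipor1, an adiponectin receptor, had 521, 498 and 578 against 842, 754 and 389 CPM, where deficient replicate 3 was below all controls (adjusted p = 0.59).

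None of 8 tested genes for the handling of lipoprotein lipase was called by edgeR, with a median of 0.26 and 4 at an unadjusted p below 0.05. Gpihbp1, the endothelial anchor of the lipase, and its cofactor Apoc2 were called lower by DESeq2 and with the stromal scaling, as well as by edgeR without deficient replicate 1, and were named after their values were seen. Angptl4, a secreted inhibitor of the lipase, had 531, 558 and 601 CPM in controls and 761, 697 and 836 CPM in deficient libraries, without overlap (0.44 ± 0.15, adjusted p = 0.15, edgeR). Lrp1, a receptor that takes up lipoprotein remnants, had a log2 fold change of 0.41 ± 0.21 (adjusted p = 0.35).

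The substrate side of factor D was uneven. Of 7 tested genes of the alternative complement pathway 0 rose and 2 fell by edgeR, with 4 at an unadjusted p below 0.05, and DESeq2 also called Cfb higher. The median was 0.04, and -0.2 with the stromal scaling. C3, its central component, had 86.2, 128.6 and 142 CPM in controls and 30.2, 21.98 and 27.6 CPM in deficient libraries (log2 fold change -2.16 ± 0.23, adjusted p = 0.0039, edgeR), and kept its call in all 6 refits. Cfp, encoding properdin, had 52.6, 65.3 and 72.8 against 33.6, 23.0 and 28.4 CPM (adjusted p = 0.016), and missed the threshold without control replicate 2 (0.074) or 3 (0.078). Neutrophils and macrophages are known to make properdin. In the same libraries 13 of 14 neutrophil markers and 6 of 13 monocyte and macrophage genes were called lower. Of the 13, C1qa, C1qb, C1qc and Mrc1 had positive log2 fold changes. The part of these cells was not tested. Among the other members of the C/EBP and FABP families 4 were tested, and 1 fell. It was Cebpe, the late granulocyte C/EBP, with 42.5, 82.5 and 71.1 CPM in controls against 22.7, 21.3 and 9.68 CPM (-1.87 ± 0.35 on the log2 scale, adjusted p = 0.021). Cebpe missed the threshold without control replicate 2 (0.089), control replicate 3 (0.092) or deficient replicate 2 (0.051).

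The genes nearest in pattern to Adipoq and Cfd were found by the root mean square difference of log2 CPM, centred on each gene's mean over the 6 libraries, among tested genes whose mean reached 10 CPM. Nearest to Adipoq were Gpm6b (0.0995 log2 units), Pon3 (0.108) and Kcns3 (0.109). Gpm6b had 182, 226.6 and 204 CPM in controls and 419, 294 and 447 CPM in deficient libraries, so that replicate 2 was the lowest of the latter as for Adipoq. Nearest to Cfd were Cfb (0.625), Iigp1 (0.656) and Ifit3 (0.708), which lay farther off. Cfb, the complement factor that Cfd cuts, had 69.4, 40.1 and 28.3 CPM in controls and 190.6, 144 and 55.5 CPM in deficient libraries. Control replicate 1 lay above deficient replicate 3, and Cfb was not called (log2 fold change 1.5 ± 0.45, adjusted p = 0.11, edgeR). Since the choice of these genes rested on the same values, no test was made of the likeness.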

How the data were processed

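The authors deposited a table of read counts per gene, whole numbers that were not normalized, and a table of regularized log2 values, per the file headers and values. Per the submitters' processing notes, TopHat2 2.0.13, Bowtie2 2.2.1, HTSeq and DESeq2 and the build mm10 were used, with no role given. Which annotation and strand setting served for counting is not stated there. Counts were filtered (filterByExpr, minimum count 10, minimum total 15), scaled by TMM and compared by the robust quasi-likelihood F-test (edgeR 4.0.16, R 4.3.3). The p-values of all 13926 tested genes were adjusted together by Benjamini-Hochberg, and 0.05 was the threshold. The F statistic gave the standard errors. One read was worth between 0.0357 and 0.0472 CPM. GENCODE M21 (GRCm38) gave gene positions and transcript lengths. Promoters came from RefSeq.

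The genes of the set and the lists were chosen with earlier results of these data known. The named genes are the set, up to 4 called genes with the largest change of each pathway list (or its 2 most abundant where none was called), and the 3 nearest in pattern to Adipoq and to Cfd. Among the 217 listed genes an older symbol was needed for 3, and 9 had no entry. The 3 ratios used CPM plus 0.5. The B lineage, with 3 of 10 markers lower, and megakaryocytes, with 5 of 6 lower, were listed as other cells of marrow. None of the 10 erythroid markers was called. The fit was first tested on simulated counts. Alternatives were other scalings, filters and tools (DESeq2 1.42.0, limma 3.58.1) and leaving out each library.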

Additional observations from a re-analysis of the deposited data

How the results depend on the processing

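All 8 tested genes but Cebpb kept the sign of their log2 fold change under every alternative run. Scaled to the stromal reference genes, Cebpb turned to -0.18 (adjusted p = 0.85, edgeR). Under that scaling Pparg was at 0.01 (adjusted p = 0.99), Cebpd at 0.03 (0.98) and Cebpa at 0.21 (0.81). The median of the 4 transcription factors was then 0.02, against 0.31 in the main fit. Besides the 6 refits, Adipoq was called in 8 of 9 alternatives and Cfd in 6 of 8. The count of called genes of the set was 1 with a filter of 5 CPM, which removed Cfd, 1 with limma-voom and 1 with limma on the deposited log2 values (Adipoq in all 3), and 1 with the stromal scaling (Cfd). It ran from 0 to 1 with a library left out, and was 0 in the refits that lacked control replicate 2, control replicate 3 or deficient replicate 1. Over all genes, 637 were called, 89 of them higher (14.0%). DESeq2 called 1328, and the stromal scaling called 647, of which 7 were higher (1.08%). With a library left out the number ran from 74 (without control replicate 3) to 577, and it was 160 without control replicate 2. Every refit lacked 1 library, and the cause of this range was not tested. The log2 differences of the 3 ratios kept their sign with 0.1 or 2 CPM added and without any library. No paired analysis was possible because the labels give no replicate numbers. For Retn and Cfd the number of reads limits what can be told.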
